A study of Homo sapiens with 48 samples.

Results

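The response of the bladder cancer line SW780 to CPI-0209, an inhibitor of the histone methyltransferase EZH2, was read from 6 RNA sequencing libraries, chosen by their cell line label from the 48 libraries of a study of 8 bladder cancer lines. SW780 is an established line from a human transitional cell carcinoma of the bladder. In 3 libraries the cells had received 250 nM CPI-0209 for 4 days, and in 3 they were labelled DMSO, the usual solvent control. Both groups were the same line in the same medium with serum, and the labels name no genetic change in either. Of 35535 genes in the count table, 16897 had enough counts in SW780 to be tested. The 6 libraries held 31727497 to 47988199 counts. The labels do not say whether the 3 libraries of a group came from separate cultures; the p-values reflect the variation among these libraries, part or all of which may be technical.

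EZH2 carries the enzyme activity of PRC2, a Polycomb complex that methylates lysine 27 of histone H3 at silenced genes, many of them developmental regulators. Genes under the mark are mostly silent or weakly expressed, and the mark is diluted by cell division once the enzyme is blocked. The superficial cells of the bladder lining, the urothelium, make uroplakins and simple keratins, and its basal cells make p63 and stratified keratins.

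Levels are given as CPM, a count divided by the size of its library, here corrected by the trimmed mean of M-values (TMM), which sets the scale from the bulk of genes. SW780 carried both luminal and basal transcripts. KRT8, a simple epithelial keratin, stood at 2801, 2589.8 and 2729 CPM in the DMSO libraries and 1786, 1542 and 1773 CPM in the CPI-0209 libraries. TP63, the basal transcription factor, stood at 107, 109 and 102 CPM in the DMSO libraries and 139.6, 144 and 143 CPM in the CPI-0209 libraries. Basal keratins differed widely in level, with KRT5 at 2.62 ± 0.279 and KRT17 at 1312 ± 80 CPM in DMSO (SD, n = 3). Of the markers of other cell types, those of leukocytes and endothelium were scarce and those of fibroblasts less so. The 11 fibroblast markers summed to 91 to 101 CPM by library total in DMSO and 147 to 150.3 in CPI-0209, with none at 0 in all libraries. The 11 leukocyte markers summed to 14.4 to 15.9 in DMSO and 12 to 13.2 in CPI-0209, with MS4A1 at 0 in all 6 libraries. The 8 endothelial markers summed to 9.93 to 10.6 in DMSO and 7.42 to 7.96 in CPI-0209, with KDR at 0 in all 6. The part of such cells in any result was not tested.

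EZH2 itself was measured at 66.9, 67.2 and 69.5 CPM in the DMSO libraries and 65.7, 69.4 and 64.3 CPM in the CPI-0209 libraries. The groups overlapped, with a log2 fold change (CPI-0209 minus DMSO) of -0.03 and an adjusted p of 0.599. CPI-0209 acts on the enzyme, so the transcript level is no check of the treatment. Of the other core subunits, the alternative enzyme EZH1 (0.09, adjusted p = 0.168) and the scaffold EED (0.05, adjusted p = 0.457) did not pass the test. With library totals as the scale, all 3 passed it, at 0.17 for EZH2 (adjusted p = 0.00337), 0.29 for EZH1 and 0.25 for EED. SUZ12, a core scaffold, fell by 0.15 ± 0.046 (SE; adjusted p = 0.009), but was 0.05 with library totals (adjusted p = 0.324) and missed the threshold without CPI-0209 replicate 3 (adjusted p = 0.0506). The histone-binding subunits moved further: RBBP7 went from 257 ± 3.48 to 139 ± 2.85 CPM (SD, n = 3), a fall of 0.88 ± 0.04, and RBBP4 fell by 0.67 ± 0.043. Among the accessory subunits EPOP rose by 0.39 ± 0.047 and PHF19 fell by 0.35 ± 0.044. In all, 3 of the 13 PRC2 genes rose (23.1%) and 5 fell (38.5%), beside 30.8% and 30.3% of all tested genes; with library totals 8 rose and 4 fell.

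Across all genes, 5208 were higher in CPI-0209 (30.8% of those tested) and 5114 were lower (30.3%), by edgeR's quasi-likelihood test at an adjusted p under 0.05, so that 61.1% changed in one or the other direction. Changes of 2-fold or more were mostly increases, with 1593 genes higher (9.43%) and 245 lower (1.45%). Direction followed expression level. Among 3045 genes with a mean under 1 CPM over the 6 libraries, 949 rose and 115 fell, with a median log2 fold change of 0.35. Among 3508 genes at 1 to 10 CPM, 1647 rose and 406 fell, with a median of 0.27. Among 7889 genes at 10 to 100 CPM, 2259 rose and 3012 fell, with a median of -0.04. Among 2398 genes at 100 to 1000 CPM, 347 rose and 1549 fell, with a median of -0.23. The 57 genes at 1000 CPM and above had 6 rises and 32 falls, with a median of -0.21. The median of all genes was 0.02.

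**Figure D1:**
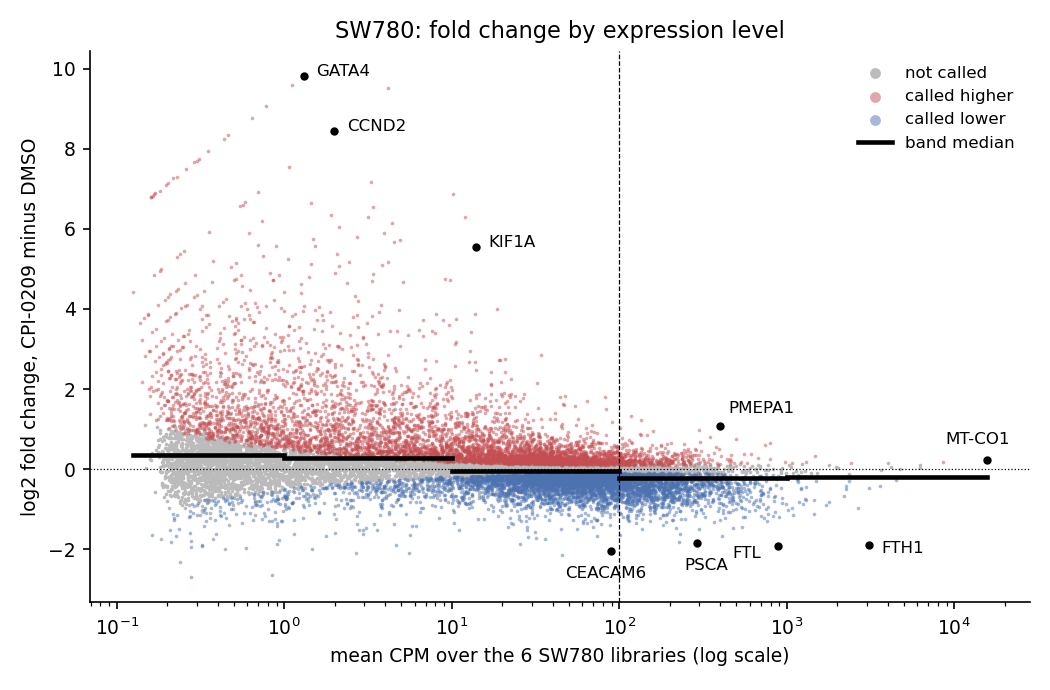
Log2 fold change (CPI-0209 minus DMSO) of each tested gene against its mean CPM over the 6 SW780 libraries (log axis), with thick lines at the median of each level band. The dashed line marks 100 CPM; to its right 1581 genes fell and 353 rose, while the largest increases lie at the left.

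Genes with a mean of at least 100 CPM are called abundant here, 2455 in all. Of these, 1581 fell (64.4%) and 353 rose (14.4%), with a median of -0.23. By 2-fold or more, 86 fell and 4 rose. Counts of falls in gene lists made mostly of abundant genes are to be read beside these shares. Counts of rises in lists of scarcer genes are to be read beside the shares at their level. At 1 to 10 CPM 46.9% rose and 11.6% fell, and at 10 to 100 CPM 28.6% rose and 38.2% fell. The share of all counts held by abundant genes, which needs no scaling, was 67.3%, 66.8% and 67.4% in the DMSO libraries and 63.8%, 63.5% and 64.3% in the CPI-0209 libraries. The groups did not overlap, and the difference of -3.29 percentage points had an exact two-sided permutation p of 0.1 (0.133 adjusted over 4 shares), the smallest that 3 against 3 allows. The 50 genes with the largest share held 12.5% ± 0.47 (SD, n = 3) in DMSO and 12.7% ± 0.36 in CPI-0209 (exact permutation p = 0.6).

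How many abundant genes fell depended on the scaling. The TMM factors were 0.92 to 0.95 in DMSO and 1.06 to 1.08 in CPI-0209. With library totals in their place, the median of all genes moved to 0.22, abundant genes split into 849 higher and 1039 lower with a median of -0.03, and 74.96% of all calls were increases, against 50.5% with TMM. Upper-quartile factors gave 66.8% increases and 634 abundant genes higher against 1231 lower. With each scaling the abundant genes lay below the median of all genes by about the same distance, and each list's median moved up with that of all genes. Both follow by construction, since each scaling applies a single factor to all genes of a library. RNA per cell was not measured, and fewer cells and less RNA per cell cannot be told apart in bulk libraries, so all changes are relative to the other RNA in the same library.

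The steepest falls among abundant genes were those of ferritin, the iron storage protein, whose heavy chain is encoded by FTH1 (chr11:61959718-61967660, GRCh38) and light chain by FTL (chr19:48965301-48966878). FTH1 stood at 4774, 4437 and 5364 CPM in the DMSO libraries and 1375, 1244 and 1321 CPM in the CPI-0209 libraries. The groups were far apart, and FTH1 fell by 1.89 ± 0.067 on the log2 scale (SE; adjusted p = 1.39e-13). FTL stood at 1431, 1337 and 1419 CPM in the DMSO libraries and 399, 348 and 369 CPM in the CPI-0209 libraries, a fall of 1.91 ± 0.054 (adjusted p = 4.55e-15). Together the pair held 0.576%, 0.546% and 0.626% of all counts in DMSO and 0.191%, 0.172% and 0.179% in CPI-0209. Both genes have processed pseudogenes, as do GAPDH, EEF1A1, PPIA, TMSB4X, ACTB and RPLP0, and how reads were divided among such copies bears on their levels.

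Ferritin genes also belong to a list of 30 genes reported as targets of NRF2, the transcription factor of the antioxidant response. Of these, 27 fell and 1 rose, with a median of -0.69 beside 0.02 for all genes, and all 22 abundant members fell. NQO1, a quinone reductase, stood at 695, 708 and 704 CPM in DMSO and 267, 252 and 249 CPM in CPI-0209, a fall of 1.46 ± 0.044 (adjusted p = 8.64e-15). AKR1B1, an aldose reductase, went from 795 ± 31.6 to 291 ± 13.4 CPM. PGD, the oxidative enzyme of the pentose phosphate pathway that makes NADPH, went from 564 ± 7.35 to 234 ± 3.3 CPM, and the peroxiredoxin PRDX1 fell by 1.06 ± 0.044. IDH1, a cytosolic NADPH-producing enzyme outside that list, stood at 425, 448 and 460.3 CPM in the DMSO libraries and 159, 159 and 157 CPM in the CPI-0209 libraries and fell by 1.49 ± 0.043. No DMSO and CPI-0209 values of these genes overlapped.

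NRF2 binds the antioxidant response element, whose core was searched as TGACNNNGC on both strands in RefSeq promoter windows (GRCh38.p14, 250 bases before to 50 after a gene's start). Of the 20 list members with a window, 7 held the core (35.0%): GCLM, ME1, GSTP1, PGD, CBR1, GPX2 and TXNRD1. Among all 12146 tested genes with a window, 1773 did (14.6%), and among 71 abundant genes that fell at least 2-fold, 16 did (22.5%), beside 15.7% of the 2017 abundant genes with a window. The window of FTL did not hold these letters, and none was used for FTH1. The 250 bases before the start are shown for the 4 members with the smallest p that held the core there. Each is written 5′ to 3′ on the gene's strand, with the matched core in capitals, so that its place and orientation can be seen.
PGD (chr1:10398814-10399063, plus strand): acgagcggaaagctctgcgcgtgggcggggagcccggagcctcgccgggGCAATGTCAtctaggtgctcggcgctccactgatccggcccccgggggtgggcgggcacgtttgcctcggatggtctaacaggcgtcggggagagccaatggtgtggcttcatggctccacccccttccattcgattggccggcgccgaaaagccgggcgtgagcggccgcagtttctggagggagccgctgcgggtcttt
GCLM (chr1:93909431-93909680, minus strand): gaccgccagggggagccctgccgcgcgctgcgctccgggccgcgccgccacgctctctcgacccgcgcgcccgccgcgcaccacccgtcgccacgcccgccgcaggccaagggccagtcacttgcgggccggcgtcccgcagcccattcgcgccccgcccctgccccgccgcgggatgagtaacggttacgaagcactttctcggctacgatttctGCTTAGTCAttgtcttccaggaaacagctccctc
GPX2 (chr14:64942746-64942995, minus strand): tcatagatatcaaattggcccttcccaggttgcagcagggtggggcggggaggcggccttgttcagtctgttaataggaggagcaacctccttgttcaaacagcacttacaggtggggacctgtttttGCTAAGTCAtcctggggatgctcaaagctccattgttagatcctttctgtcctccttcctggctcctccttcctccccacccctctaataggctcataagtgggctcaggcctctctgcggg
ME1 (chr6:83431052-83431301, minus strand): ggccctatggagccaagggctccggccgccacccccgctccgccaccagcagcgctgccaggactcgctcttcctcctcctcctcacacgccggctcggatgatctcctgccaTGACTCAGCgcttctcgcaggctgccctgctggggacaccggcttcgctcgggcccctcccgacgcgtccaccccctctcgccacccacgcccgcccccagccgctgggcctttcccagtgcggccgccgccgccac
The core lay on the opposite strand in PGD, GCLM and GPX2 and on the gene's strand in ME1. A match describes the letters in the window and is not a measured binding site.

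Transcripts of most enzyme genes of glycolysis, the conversion of glucose to pyruvate, were lower. Of 19 enzyme genes 14 fell and 2 rose, with a median of -0.73, and of the 4 transport genes 2 fell. All 23 together had a median of -0.42. With library totals 12 of the 23 fell and 6 rose, with a median of -0.21. PKM, pyruvate kinase, stood at 3611, 3485 and 3532 CPM in the DMSO libraries and 1806, 1729 and 1890.05 CPM in the CPI-0209 libraries, a fall of 0.97 ± 0.051 (adjusted p = 1.14e-11). ALDOA, aldolase, stood at 2009.8, 1887 and 2065 CPM in the DMSO libraries and 926, 857 and 949 CPM in the CPI-0209 libraries, a fall of 1.13 ± 0.053. GPI, which makes fructose 6-phosphate, went from 765 ± 18.4 to 336 ± 12.6 CPM, PGK1 fell by 1.04 ± 0.041 and PGAM1 by 0.94 ± 0.044. Smaller falls were seen for LDHA, lactate dehydrogenase (0.77 ± 0.042), ENO1, enolase (0.48 ± 0.049), and GAPDH (0.42 ± 0.057). GAPDH is often used as a reference transcript; it stood at 4116, 3937 and 4237 CPM in DMSO and 3142, 2839 and 3232 CPM in CPI-0209.

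Lipid synthesis genes fell as well. Of 21 cholesterol synthesis enzymes 20 fell and none rose, and the whole list of 27 had a median of -0.43. DHCR7, the last step to cholesterol, went from 196 ± 8.36 to 103 ± 3.46 CPM. FDFT1, squalene synthase, fell by 0.79 ± 0.041. STARD4, which carries cholesterol between membranes, was the single member that rose, with 4.28, 4.81 and 4.4 CPM in DMSO and 14.5, 15.2 and 14.1 CPM in CPI-0209. Among 20 fatty acid synthesis genes 14 fell and 6 rose, with a median of -0.32; the 9 abundant ones all fell. With library totals 9 of the 20 fell and 6 rose. FASN, fatty acid synthase, stood at 2424, 2251 and 2224 CPM in the DMSO libraries and 1246, 1238 and 1407 CPM in the CPI-0209 libraries, a fall of 0.83 ± 0.057 (adjusted p = 4.35e-10). SCD, the stearoyl-CoA desaturase, went from 1197 ± 31.2 to 665 ± 3.91 CPM and FADS1, another desaturase, fell by 0.75 ± 0.04.

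Among 41 cytoskeleton genes 27 fell and 7 rose, with a median of -0.47. COTL1, coactosin-like protein, which binds actin filaments (chr16:84565594-84618077), is not in that list. COTL1 stood at 656, 607 and 612 CPM in the DMSO libraries and 199.8, 192 and 195 CPM in the CPI-0209 libraries. Its fall of 1.67 ± 0.045 (adjusted p = 2.77e-15) was the fifth steepest among abundant genes. The actin monomer-binding peptide TMSB4X stood at 1507, 1502 and 1504 CPM in the DMSO libraries and 694, 679 and 663 CPM in the CPI-0209 libraries, a fall of 1.15 ± 0.044. CFL1, cofilin, fell by 1.16 ± 0.048, the Arp2/3 subunit ARPC1B by 1.13 ± 0.046, the myosin light chain MYL12B by 1.09 ± 0.044 and the crosslinker ACTN4 by 0.89 ± 0.053. ACTB, beta-actin, another common reference, fell by 0.47 ± 0.056, from 3611 ± 174 to 2611 ± 139 CPM. The tubulins went both ways: TUBA1B fell from 1825 ± 99 to 1067 ± 44.2 CPM, and TUBA1A rose from 23.4 ± 1.5 to 70.3 ± 3.46 CPM.

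The S100 calcium-binding proteins had 9 falls and 3 rises among 13 tested, with a median of -0.77. S100A4 fell by 1.56 ± 0.055, from 47.2 ± 1.82 to 16 ± 0.714 CPM. S100A16 fell by 1.04 ± 0.046, S100A11 by 1.01 ± 0.048 and S100P by 0.99 ± 0.046. ANXA2, an annexin that pairs with an S100 protein at the membrane, stood at 1624, 1585 and 1673 CPM in DMSO and 886, 882 and 894 CPM in CPI-0209.

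Most genes for making, folding and degrading proteins fell as well. Of 79 cytosolic ribosomal protein genes 70 fell and none rose, with a median of -0.29 and a range of -0.82 to 0.03. With library totals 38 fell and 5 rose, and the median was -0.09. RPLP0 went from 1502 ± 39.5 to 852 ± 38.1 CPM, RPL22 fell by 0.77 ± 0.042 and RPSA by 0.69 ± 0.043. Of 37 translation factor genes 31 fell and 1 rose; with library totals 15 fell and 7 rose. PABPC1, the poly(A)-binding protein, stood at 1157, 1129 and 1168 CPM in DMSO and 557, 551 and 548 CPM in CPI-0209, and EIF5A fell by 1.04 ± 0.045. EEF1A1, the elongation factor, stood at 4729.8, 4824 and 5167 CPM in DMSO and 4022, 4035 and 4049.6 CPM in CPI-0209, a fall of 0.28 ± 0.053; with library totals it missed the threshold (-0.08, adjusted p = 0.129).

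Of 26 chaperone genes 22 fell and 1 rose, with a median of -0.42. The cyclophilin PPIA went from 1417 ± 30.8 to 719 ± 15.9 CPM and the mitochondrial co-chaperonin HSPE1 fell by 1.11 ± 0.047. Of 38 unfolded protein and integrated stress genes 26 fell and 5 rose; the lectin chaperone CALR fell by 1.04 ± 0.041 and the disulfide isomerase P4HB by 0.98 ± 0.045. Among 31 proteasome genes 30 fell and none rose, with a median of -0.48. All 14 members of the catalytic core fell, PSMB3 by 0.99 ± 0.051 and PSMB2 by 0.89 ± 0.041.

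Most nuclear genes for the respiratory chain fell, and no mitochondrial gene did. Of 61 nuclear genes 56 fell and none rose, with a median of -0.47, and every member of complexes II, IV and V fell (4, 10 and 12 genes). SDHC of complex II fell by 1.16 ± 0.041, COX8A of complex IV by 1.12 ± 0.047 and UQCRH of complex III by 1.01 ± 0.041. The 13 protein genes of the mitochondrial genome had 3 rises and no falls, with a median of 0.05; with library totals 11 rose and the median was 0.25. MT-CO1, the most abundant gene named here, stood at 13849, 13716 and 15931 CPM in the DMSO libraries and 16836, 16464 and 17357 CPM in the CPI-0209 libraries, a rise of 0.22 ± 0.068 (adjusted p = 0.0088). MT-CO2 rose by 0.18 ± 0.068 and MT-ND2 by 0.16 ± 0.054. These 3 calls were lost when single libraries were left out. MT-CO1 missed the threshold without DMSO replicate 1 (0.18, adjusted p = 0.0661). MT-ND2 missed it without DMSO replicate 1 or 2 or CPI-0209 replicate 1 (0.12 to 0.15, adjusted p 0.0524 to 0.106), and MT-CO2 without DMSO replicate 1 or 2 or CPI-0209 replicate 1 or 3 (0.12 to 0.19, adjusted p 0.054 to 0.144). In the fit of all 48 libraries their adjusted p ran from 0.0921 to 0.357. Mitochondrially encoded genes held 4.65%, 4.63% and 5.26% of counts in DMSO and 6.09%, 5.89% and 6.18% in CPI-0209, without overlap (exact permutation p = 0.1, the smallest possible).

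Of 45 proliferation genes 36 fell and 2 rose, with a median of -0.27; with library totals 19 fell and 9 rose, with a median of -0.07. TK1, a thymidine kinase of S phase, went from 265 ± 12.7 to 134 ± 8.19 CPM, and BIRC5, survivin, fell by 0.86 ± 0.041.

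**Figure D2:**
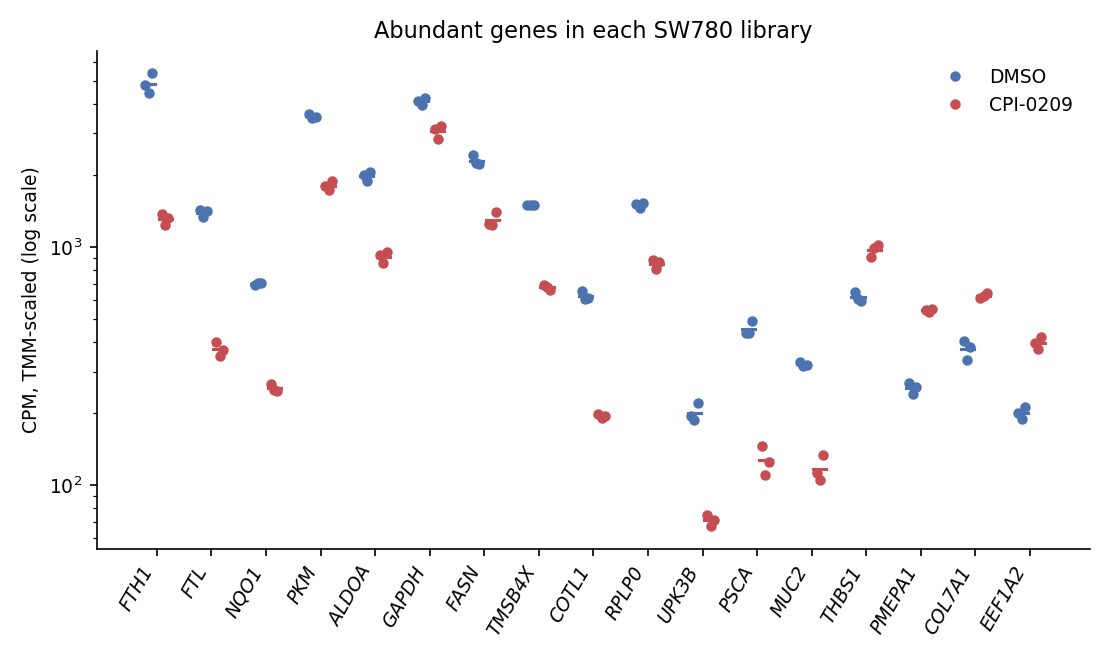
CPM (log axis, TMM-scaled) of 17 abundant genes in each of the 6 SW780 libraries; points are libraries and short lines are group means. FTH1 falls from 4437 to 5364 CPM in DMSO to 1244 to 1375 CPM in CPI-0209, and the 4 genes at the right are higher in every CPI-0209 library than in every DMSO library.

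Most genes of the luminal program fell. Of 29 luminal urothelial genes 21 fell and 2 rose, with a median of -0.26. With library totals 11 fell and 6 rose. Of the 18 abundant genes in this list 12 fell and 2 rose, near the shares of all abundant genes (64.4% and 14.4%). All 5 uroplakin genes, which encode the plaques of the urothelial surface, fell, with a median of -1.45. UPK3B stood at 195, 188 and 221 CPM in the DMSO libraries and 74.6, 67.4 and 71.1 CPM in the CPI-0209 libraries, a fall of 1.51 ± 0.058 (adjusted p = 2.14e-12). UPK1B went from 218 ± 5.44 to 88.4 ± 1.99 CPM. UPK3A was scarce, with 1.12, 1.16 and 1.97 CPM in DMSO and 0.321, 0.462 and 0.368 CPM in CPI-0209, and fell by 1.88 ± 0.27. KRT8 fell by 0.67 ± 0.059, the luminal cofactor VGLL1 by 0.76 ± 0.045, SNX31 by 0.88 ± 0.046 and the luminal regulator PPARG by 0.40 ± 0.046.

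The genes with the steepest falls that the naming rule took are described singly. ABCG2, a urate and drug exporter, stood at 71.3, 75.2 and 74.4 CPM in the DMSO libraries and 18.8, 15.5 and 16.3 CPM in the CPI-0209 libraries, a fall of 2.13 ± 0.061 (adjusted p = 5.38e-15), the largest that the naming rule took. CEACAM6, an adhesion molecule anchored by a lipid, stood at 145, 141 and 147 CPM in the DMSO libraries and 36.3, 33.4 and 34.8 CPM in the CPI-0209 libraries, a fall of 2.05 ± 0.046; of 4 tested CEACAM genes it alone fell and 2 rose. PSCA, a small lipid-anchored surface protein of the LY6 family, went from 454 ± 28.7 to 127 ± 17.6 CPM, and 9 of the 12 tested LY6 family genes fell, LY6D by 0.92 ± 0.079. MUC2, a gel-forming mucin, stood at 329, 316 and 321 CPM in DMSO and 112, 105 and 134 CPM in CPI-0209. Of 8 other tested mucin genes 3 rose and 1 fell. CST4, a secreted cystatin, fell by 1.89 ± 0.12.

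NPC2, which carries cholesterol out of the lysosome, stood at 151, 150.2 and 156 CPM in DMSO and 49.5, 47.1 and 50.9 CPM in CPI-0209, and CSTB, a cytosolic inhibitor of cathepsins, fell by 1.62 ± 0.046. GDPD3, a glycerophosphodiester hydrolase, fell by 1.88 ± 0.06 and BSCL2, seipin, which acts in lipid droplet formation, by 1.74 ± 0.067. The RNA sensor TLR7 stood at 8.19, 9.41 and 9.62 CPM in DMSO and 1.98, 2.5 and 1.84 CPM in CPI-0209. CDH5, an endothelial cadherin, went from 2.34 ± 0.143 to 0.585 ± 0.0596 CPM; it is 1 of the 3 endothelial markers that fell among 5 tested. Another is PECAM1, which fell by 0.40 ± 0.11, a call that was lost with library totals (adjusted p = 0.137).

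Basal and squamous genes went mostly the other way, with 16 rises and 5 falls among 27 and a median of 0.29. Of 13 adhesion genes in this list 8 rose and none fell. COL7A1, the anchoring fibril collagen, stood at 403, 336 and 379 CPM in the DMSO libraries and 611, 623 and 639 CPM in the CPI-0209 libraries, a rise of 0.75 ± 0.055 (adjusted p = 1.94e-09). KRT5 rose from 2.62 ± 0.279 to 11.5 ± 0.914 CPM, KRT16 by 0.93 ± 0.07, KRT17 by 0.33 ± 0.057 and TP63 by 0.42 ± 0.042. Of the 9 keratins in the list 5 rose and 4 fell. KRT13, a keratin of intermediate layers, fell by 1.12 ± 0.055, from 1053 ± 64 to 485 ± 31 CPM.

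Few abundant genes rose by as much as others fell. PMEPA1, a membrane protein induced by TGF-beta that damps its signalling, stood at 268, 241 and 258 CPM in the DMSO libraries and 546, 535 and 548 CPM in the CPI-0209 libraries, a rise of 1.09 ± 0.046 (adjusted p = 6.09e-13). THBS1, thrombospondin, stood at 649, 608 and 596 CPM in DMSO and 911, 995 and 1023 CPM in CPI-0209, a rise of 0.66 ± 0.051. The retinaldehyde dehydrogenase ALDH1A3 went from 592 ± 9.01 to 899 ± 14.6 CPM. EEF1A2, the tissue-restricted partner of EEF1A1, rose by 0.97 ± 0.051, from 201 ± 11.8 to 395 ± 22.1 CPM, in contrast to EEF1A1.

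Most genes of antigen presentation by MHC class I fell. Of 17 genes 12 fell and 3 rose, with a median of -0.19 that was 0.01 with library totals. B2M, the invariant light chain, went from 437 ± 15.4 to 244 ± 11.4 CPM, and HLA-C fell by 1.03 ± 0.049. NLRC5, the transactivator of these genes, rose by 1.83 ± 0.10, from 2.78 ± 0.324 to 9.8 ± 0.628 CPM. Among 13 MHC class II genes, none of them abundant, 6 rose (46.2%) and 2 fell (15.4%), near the 46.9% and 11.6% of all genes at 1 to 10 CPM. Of 38 type I interferon-stimulated genes 21 rose (55.3%) and 9 fell (23.7%), with a median of 0.23. OAS3 (0.80 ± 0.043) and BST2 (0.89 ± 0.048) were among the falls. Of 40 cytokine and chemokine genes 24 had enough counts to be tested, and 15 rose and 4 fell. Those silent in DMSO could be tested only if their CPI-0209 libraries held enough counts.

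**Figure D3:**
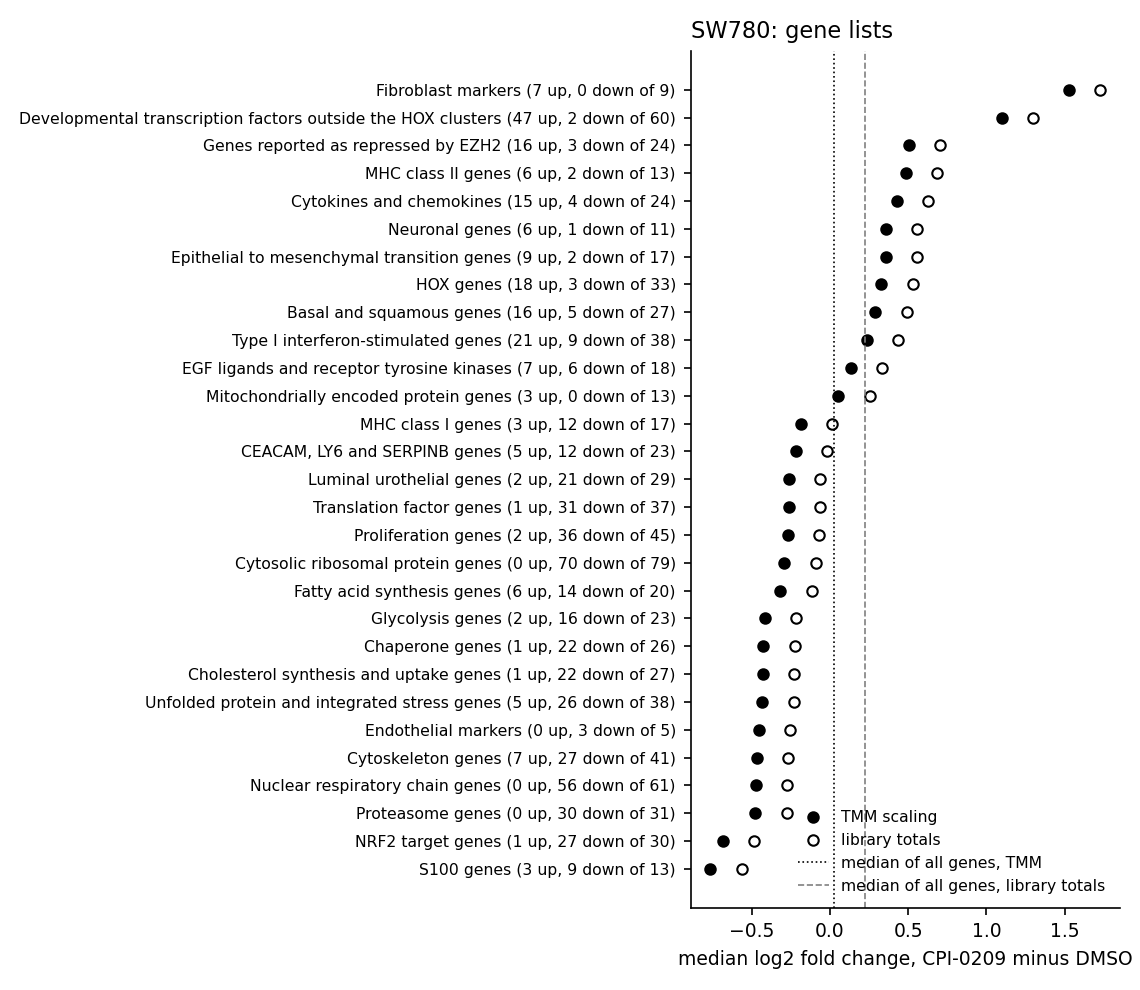
Median log2 fold change (CPI-0209 minus DMSO) of gene lists in SW780, with filled points for TMM scaling and open points for library totals. Vertical lines mark the median of all genes under each, 0.02 and 0.22. The 10 lists that the text groups by their small medians are not drawn, nor are the PRC2 subunits and the leukocyte markers. Numbers beside each name count the members that rose and fell among those tested, such as 27 falls of 30 NRF2 targets and 47 rises of 60 developmental transcription factors. The lowest median drawn is that of the S100 genes (-0.77) and the highest that of the fibroblast markers (1.53).

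The genes with the largest rises were silent or nearly so in DMSO. GATA4, a transcription factor of heart and gut development, had 0 counts in the 3 DMSO libraries and 367 in the CPI-0209 libraries, at least 101-fold higher if the DMSO group is set to a floor of 3 counts in all. CCND2, cyclin D2 (chr12:4273772-4305350), had 1 count in DMSO and 559 in CPI-0209, a ratio of 462 with an exact 95% interval of 82.6 to 18293 that covers counting error only. TBX5, a T-box factor of heart and limb, had 1 and 195 counts, and OLFM4, a secreted glycoprotein of gut crypts, 1 and 164. CACNA1H, a T-type calcium channel, stood at 0.0679, 0.112 and 0.0234 CPM in DMSO and 6.75, 6.18 and 7.17 CPM in CPI-0209, and LPL, lipoprotein lipase, went from 0.0457 ± 0.0228 to 3.74 ± 0.0519 CPM.

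TEX15, a meiotic gene, had 1 count in DMSO and 153 in CPI-0209. GAGE2A stood at 0.136, 0.0671 and 0.304 CPM in DMSO and 20.1, 20 and 20.7 CPM in CPI-0209, and GAGE2E had 1 count in DMSO and 1183 in CPI-0209. CT47A11 had 0 and 219 counts, MAGED4 1 and 155, and RFPL4A 1 and 301. Among these genes with 1 count in DMSO the ratio ran from 127 for TEX15 (exact 95% interval 22.4 to 5030.3) to 978 for GAGE2E (175 to 38678). GAGE2A, GAGE2E, CT47A11, MAGED4 and RFPL4A have near-identical copies, so which copy was transcribed is uncertain.

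Of 93 developmental transcription factors outside the HOX clusters, 60 had enough counts to be tested, and a gene silent in DMSO could pass that filter only by its CPI-0209 libraries. The same limit holds for every list with untested members. Of the 60, 47 rose and 2 fell, with a median of 1.10. FOXF1, a factor of visceral mesoderm, stood at 0.136, 0.246 and 0.258 CPM in DMSO and 8.48, 7.21 and 8.64 CPM in CPI-0209, a rise of 5.17 ± 0.18. GLI2, a mediator of hedgehog signalling, rose by 4.62 ± 0.29 and SOX8 by 4.2 ± 0.18. The HOX genes, which set position along the body axis, lie in clusters. All 7 tested HOXD genes rose, as did 5 of 6 HOXC genes, while 4 of 10 HOXB and 2 of 10 HOXA genes did; 3 of the 33 fell. HOXD11 rose by 2.31 ± 0.14, HOXB9 by 2.14 ± 0.16, HOXD1 by 1.96 ± 0.11 and HOXC13 by 0.98 ± 0.063. The differences among clusters were not tested.

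Of 24 tested genes reported as repressed by EZH2, 16 rose and 3 fell, with a median of 0.50. CNR1, a cannabinoid receptor, rose by 4.08 ± 0.32, the WNT antagonist SFRP1 by 1.78 ± 0.067, from 6.28 ± 0.14 to 21.6 ± 0.404 CPM, VASH1 by 1.28 ± 0.078 and the WNT antagonist DKK1 by 0.62 ± 0.044. Of 24 neuronal genes 11 were tested, and 6 rose (54.5%) and 1 fell (9.09%), beside 46.9% and 11.6% of all genes at 1 to 10 CPM. Here too a gene silent in DMSO could pass the filter only by its CPI-0209 libraries. The axonal motor KIF1A stood at 0.815, 0.469 and 0.539 CPM in the DMSO libraries and 26.9, 25.5 and 29 CPM in the CPI-0209 libraries, a rise of 5.53 ± 0.12 (adjusted p = 2.49e-16). LINGO1 rose by 5.17 ± 0.21 and the neurofilament NEFL by 2.24 ± 0.066, while the intermediate filament INA fell by 1.12 ± 0.048.

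Among genes linked to epithelial to mesenchymal transition 9 of 17 rose (52.9%) and 2 fell (11.8%), beside 46.9% and 11.6% of all genes at 1 to 10 CPM. CDH2, N-cadherin, rose from 11.1 ± 0.101 to 22.7 ± 0.749 CPM, and ITGA5, an integrin chain for fibronectin, rose by 1.52 ± 0.053. Of 9 tested fibroblast markers 7 rose and none fell, among them COL1A1, from 9.65 ± 1.12 to 34.6 ± 0.906 CPM, THY1 by 2.96 ± 0.25, POSTN by 1.91 ± 0.19 and FAP by 0.88 ± 0.13. Among receptor tyrosine kinases and EGF ligands 7 of 18 rose (38.9%) and 6 fell (33.3%), shares near the 30.8% and 30.3% of all tested genes. FGFR1 rose by 2.04 ± 0.081, FGFR4 by 1.73 ± 0.11 and FGFR2 by 1.26 ± 0.052.

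Lists with small medians make up the rest. For 10 of the 41 lists (cornified envelope, PPAR targets, MYC and ribosome biogenesis, epithelial junctions, hypoxia, p53 targets, cell cycle inhibitors with D cyclins, ERK feedback, metallothioneins and secreted mucosal proteins) medians lay between -0.15 and 0.14, and 67 members rose and 95 fell of 222 tested. Among all tested genes 30.8% rose and 30.3% fell. In 2 of these lists falls outnumbered rises: 19 of 37 MYC and ribosome biogenesis genes fell and 8 rose, and 23 of 46 epithelial junction genes fell and 11 rose. Of their abundant members 15 of 20 and 18 of 25 fell, beside 64.4% of all abundant genes. PPAR targets (7 falls, 4 rises) and p53 targets (12 and 7) leaned the same way, and hypoxia genes (7 and 10) the other. Of 6 tested leukocyte markers 2 rose and 1 fell.

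Fold change in abundant genes also varied with transcript length. Among 2439 abundant protein-coding genes the Spearman correlation of the log2 fold change with the length of the transcript was 0.46 across genes, which share libraries and are not replicates. Genes with transcripts of 1000 to 2000 bases had a median of -0.49, with 278 of 313 lower. Genes of 4000 to 6000 bases had a median of -0.14, and the 150 of 10000 bases and above a median of 0.05, with 44 higher and 33 lower. The correlation with GC content was -0.02. The annotated lengths for FTH1, FTL and COTL1 are 1229, 878 and 1843 bases, against 8565 and 9276 for FASN and COL7A1. With a length trend removed the log2 fold changes of FTH1, FTL and COTL1 were -1.62, -1.60 and -1.52, against -0.93 and 0.64 for FASN and COL7A1. This trend was fitted over all genes of at least 1 CPM, an alternative chosen after seeing the data. With it removed, 1569 abundant genes fell and 346 rose, with a median of -0.21. In the other 7 lines the same correlation, each over its own abundant genes, ran from -0.52 in KU1919 to 0.56 in VMCUB.

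**Figure D4:**
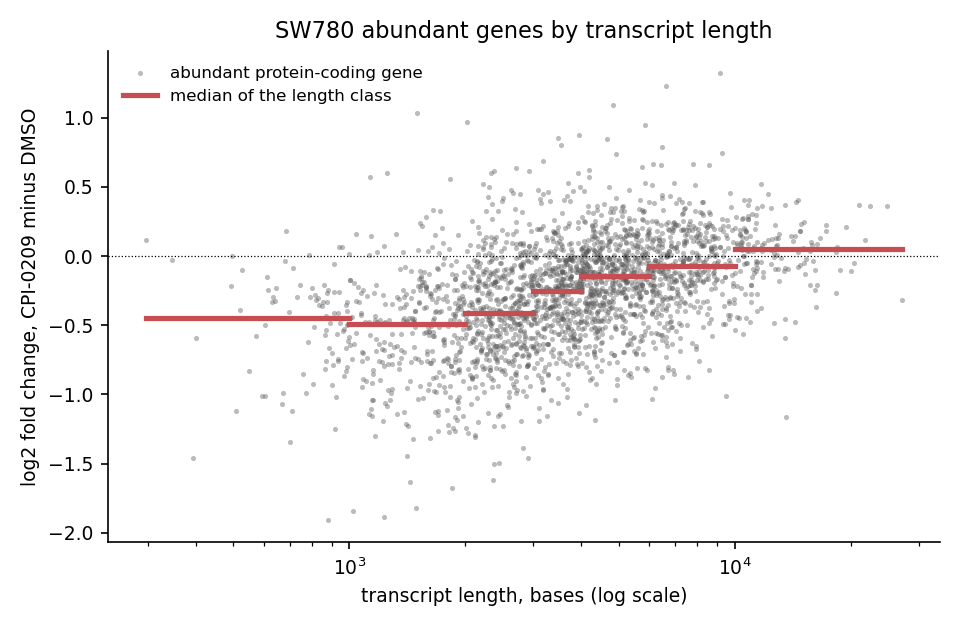
Log2 fold change (CPI-0209 minus DMSO) of abundant protein-coding genes in SW780 against the length of the longest annotated transcript (log axis). Lines mark the median of each length class. The medians run from -0.49 at 1000 to 2000 bases to 0.05 at 10000 bases and above.

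The extent of the fall was compared with the other 7 lines, treated with the same dose for the same time. Genes with at least 100 CPM in a line fell in 1.39% of cases in T24, where 0.930% of all tested genes fell, and in 38.1% in TCCSUP, where 23.0% fell. The other lines lay between these, against 64.4% in SW780. All these shares are with TMM scaling. The TMM factors were 0.92 to 0.95 in DMSO and 1.06 to 1.08 in CPI-0209 for SW780, against 0.97 to 1.02 and 1.00 to 1.02 for TCCSUP. With library totals 1039 of the 2455 abundant SW780 genes fell, with a median of -0.03. The other lines were not refitted singly on that scale, so the size of the SW780 excess there is not known. For the SW780 set of abundant genes, the median log2 fold change in the other lines lay between -0.10 in TCCSUP and -0.0053 in VMCUB. The difference itself was tested in a fit of all 48 libraries, as the SW780 response minus the mean response of the other 7 lines. The p-values of this fit reflect the spread among libraries of the same line and treatment, not the variation among lines. Of 19790 genes tested, 2734 were higher in SW780 (13.8%) and 3331 lower (16.8%). Of the 2455 abundant genes, 40.9% were lower than in the other lines and 8.51% higher, with a median difference of -0.15 beside 0.01 for all genes. Of the 1581 abundant genes that fell within SW780, 966 were lower than in the other lines, and of the 353 that rose, 158 were higher.

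COTL1 fell in SW780 by more than in any other line, with a log2 difference from the mean of the others of -1.44 (adjusted p = 9.59e-20); its log2 change of -1.65 compared with -0.37 to -0.10 elsewhere. These log2 changes come from the fit of all libraries. CHP1, a calcium-binding partner of sodium-proton exchangers, went from 154 ± 2.09 to 74.8 ± 1.43 CPM in SW780, a log2 change of -1.02 against -0.41 to -0.02 elsewhere. TM7SF3, a membrane protein, stood at 410.5, 418 and 407 CPM in DMSO and 214, 207 and 199.9 CPM in CPI-0209, a log2 change of -0.97 against -0.40 to 0.05 elsewhere. Other genes fell here and had log2 changes above 0 in some or all other lines. GLUL, glutamine synthetase, went from 567 ± 5.69 to 436 ± 4.19 CPM in SW780, a log2 change of -0.35 against -0.20 to 3.99 elsewhere, with its highest value in TCCSUP. IGF2, a growth factor, went from 256 ± 11.3 to 147 ± 8.84 CPM, a log2 change of -0.78, and was above 0 in every other line (0.42 to 2.9); its gene overlaps a readthrough locus. DUSP4, a phosphatase that damps ERK signalling, went from 126 ± 2.74 to 77.7 ± 3.73 CPM, a log2 change of -0.68 against 0.08 to 2.35 elsewhere. ITM2C changed by -0.86 (0.01 to 3.74 elsewhere), TXNDC5 by -0.62 (-0.03 to 0.36), the actin bundler LCP1 by -0.67 (-0.40 to 2.93) and the clock repressor BHLHE41 by -0.61 (-0.54 to 3.22).

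In the upward direction, GADD45A, a stress-induced growth arrest gene, went from 66.8 ± 6.19 to 137 ± 5.58 CPM, a log2 change of 1.06 against -0.67 to 0.34 elsewhere. The transcription factor ETS2 stood at 96.8, 90.2 and 94 CPM in DMSO and 169, 171 and 173 CPM in CPI-0209, a log2 change of 0.90 against -0.66 to 0.46 elsewhere. NCOA7 changed by 0.68 in SW780, against -0.42 to 0.12 elsewhere. HEXIM1, an inhibitor of the elongation kinase P-TEFb, changed by 0.43, against -0.31 to -0.09 elsewhere. In these 14 genes no other line lay beyond SW780. The rule that took them asked for a difference in the SW780 direction, so that order is a description.

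**Figure D5:**
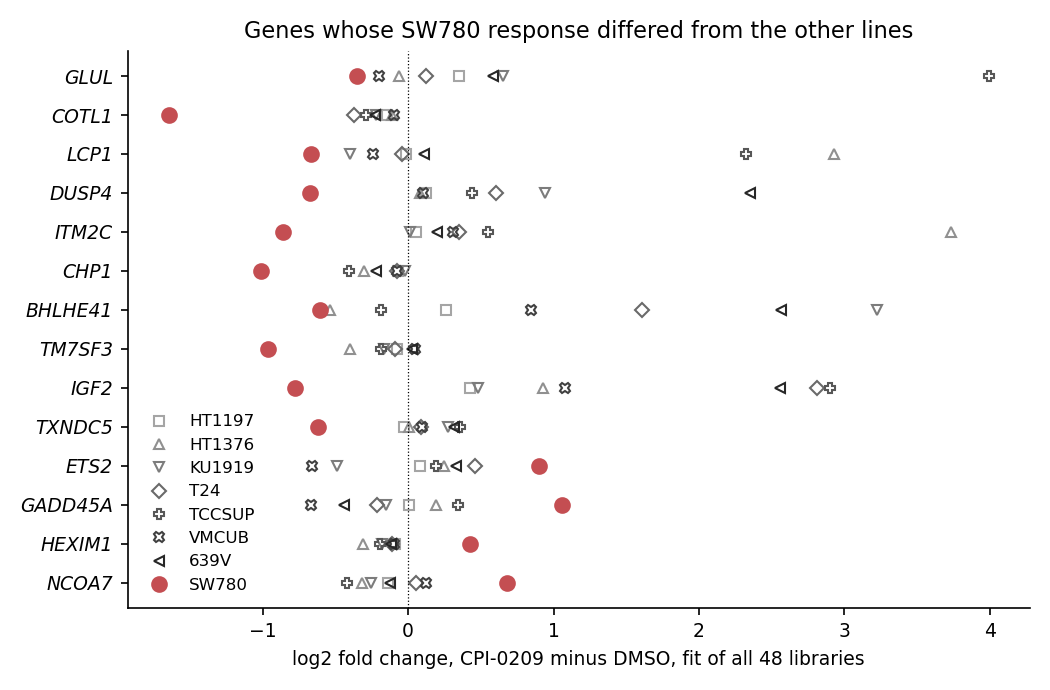
Log2 fold change (CPI-0209 minus DMSO, fit of all 48 libraries) of 14 abundant genes in SW780 (filled circles) and in the other 7 lines (open symbols). SW780 is the lowest of the 8 lines for the upper 10 genes and the highest for the lower 4.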

How the data were processed

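Total RNA was extracted with Trizol and sequenced as paired-end reads, per the labels' protocols. The submitters' processing notes list STAR 2.7.3a, RSEM 1.3.1 and hg38. The values the authors deposited are whole-number counts for each gene. How RSEM's estimates were made whole, the annotation, and any use of strand are not given in the sources used here; reads of antisense or overlapping genes therefore cannot be told apart. Symbols matched for 35414 of 35535 genes, GENCODE 29 coordinates for 35497, and 0 entries named no gene.

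Libraries were grouped by their labels. Counts of the 6 SW780 libraries were tested in R 4.3.3 with edgeR 4.0.16: filterByExpr, TMM scaling, robust quasi-likelihood test (4 residual degrees of freedom), Benjamini-Hochberg adjustment over all 16897 genes, threshold 0.05. Unless another test is named, each adjusted p is from this fit, and rose or fell means past it. SE was taken as the size of the log2 fold change over the root of its F statistic; SD is over 3 libraries. The difference from the other lines used all 48 libraries. Replicate pairs differed beyond sampling noise (chi-square over degrees of freedom 4.04 to 7.63). The script was tested on simulated data. Figures used Python 3.11.15 and matplotlib 3.10.9. Lists are described by counts and medians only.

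Named genes were the 4 PRC2 genes EZH2, EZH1, EED and SUZ12; the 12 largest rises and 12 largest falls among called genes of at least 1 CPM in the higher group whose libraries did not overlap; the 15 abundant genes with the largest loss of CPM, 10 with the largest fold fall and 8 with the largest gain; 10 lower and 4 higher than in the other lines by p; and up to 4 members per list by p with up to 2 more abundant ones. Pseudogenes and readthrough loci were passed over. A few genes within this rule are not reported here. The genes and lists were chosen with earlier results of these data known. Alternatives were RLE, library total and upper-quartile scaling, DESeq2 1.42.0, no filter on low counts, thinning, the fit of all libraries, a replicate block, other definitions of abundance and leaving out each library or line; removal of a length or abundance trend was added after seeing the data.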

Additional observations from a re-analysis of the deposited data

Results flagged for a closer look

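The response of 14 abundant genes in SW780 differed from the mean response of the other 7 lines by edgeR's quasi-likelihood test of the difference itself. For 10 genes SW780 lay lower, by log2 differences of -1.13 (GLUL), -1.44 (COTL1), -1.34 (LCP1), -1.34 (DUSP4), -1.61 (ITM2C), -0.84 (CHP1), -1.72 (BHLHE41), -0.85 (TM7SF3), -2.38 (IGF2) and -0.78 (TXNDC5). For 4 it lay higher, by 0.87 (ETS2), 1.19 (GADD45A), 0.58 (HEXIM1) and 0.84 (NCOA7). The adjusted p over 19790 genes ran from 3.00e-21 for GLUL to 5.58e-12 for NCOA7. It rests on the spread among libraries of the same line and treatment and does not measure the variation among lines. COTL1, CHP1, TM7SF3 and HEXIM1 varied little among the other lines, while GLUL, ITM2C, BHLHE41, LCP1, IGF2 and DUSP4 spanned more than 2 log2 units there. All 14 kept their direction and call with library totals, RLE factors, the replicate block, and without each SW780 library or each other line.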

How the results depend on the processing

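With library totals 8499 genes were higher and 2839 lower, 122 of them by 2-fold, and of the abundant genes 849 were higher and 1039 lower (median -0.027). Upper-quartile factors gave 163 genes at least 2-fold lower and, of the abundant genes, 634 higher with a median of -0.10. Removing an abundance trend, chosen after seeing the data, takes out the pattern by construction: 975 abundant genes were higher and 932 lower, their median reversed to 0.017, and 418 genes were at least 2-fold lower. Removing a length trend left 153 genes at least 2-fold lower and an abundant median of -0.21, and the fit of all 48 libraries 193 abundant genes higher and a median of -0.20. Redefining abundance gave 876 higher and 2891 lower (median -0.17) at 50 CPM, 109 and 659 (-0.30) at 200 CPM, and 234 higher with a median of -0.34 when the same number of genes was ranked by CPM per kb of exon. Against the other lines, library totals gave 4286 genes higher, 411 of them abundant. The cause of these moves was not tested beyond each alternative's own construction. RLE factors, DESeq2, no filter and thinning kept every count within 1.5 times, as did leaving out 1 library (4890 to 5029 higher and 4834 to 5004 lower genes) or 1 other line.

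Of 157 genes named, 145 kept direction and call in all 16 alternatives. EZH2 reversed to 0.17 with library totals, 0.095 with upper-quartile factors, 0.056 without the length trend and 0.10 without the abundance trend. SUZ12 reversed to 0.054 and 0.030 with library totals and without the abundance trend, and EEF1A1 to 0.12 without the latter, where GAPDH (adjusted p = 0.693), ACTB (0.137) and GLUL (0.432) lost their calls. The ribosomal protein median reversed to 0.0065 without the abundance trend and the MHC class I median to 0.014 with library totals.

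Of the same-numbered libraries the replicate 2 pair deviated together (correlation 0.23, the highest of all pairs) and the others did not (0.019 and 0.018), so the numbers were not taken as pairs, and DMSO replicate 1 correlated best with CPI-0209 replicate 3. A replicate block gave 5325 higher and 5293 lower genes and changed the call of none of the genes named. With 31727497 counts or more per library, counting error limits only the genes with few counts, whose ratios carry wide intervals.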

Other observations

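Other abundant genes that fell at least 2-fold in SW780, chosen after their values were seen, were in none of the gene lists. Of lysosomal and galactoside-binding proteins, the protease CTSD went from 1081 ± 57.3 to 441 ± 32.9 CPM, the saposin precursor PSAP from 559 ± 24.4 to 277 ± 3.21 CPM and galectin LGALS3 from 178 ± 7.64 to 80.2 ± 4.61 CPM (SD, n = 3). The small GTPase RHOA, which drives actin contraction, stood at 282, 291 and 299 CPM in DMSO and 119.8, 123 and 118 CPM in CPI-0209, and the actin regulators CAP1 and CAPZB fell by 1.1 ± 0.041 and 1.07 ± 0.041 on the log2 scale (SE).

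PTMA, prothymosin, went from 1242 ± 73.1 to 545 ± 20.5 CPM, HMGA1, an architectural chromatin protein, from 455 ± 20.3 to 198 ± 12.1 CPM, and the secreted growth factors HDGF and MDK fell by 1.22 ± 0.044 and 1.3 ± 0.055. These genes are 10 of the 86 that fell at least 2-fold among 2455 abundant genes.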
